A study of Polypedilum vanderplanki with 72 samples.

Results

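The genes described here are 77 genes of the Pv11 cell line whose transcripts were low in the line expressing HSF1 isoform V4, 24 h after rehydration. They were chosen by their levels in CPM, a gene's count scaled to the same gene total in every library. The mean of the 3 V4 libraries, with 0.5 CPM added, had to be at most 0.6 times that of wild-type cells (WT) and of each of the lines expressing isoforms V1, V2 and V3. Genes with a WT mean under 5 CPM at that time were left out. Of 17156 genes, 7053 passed this minimum and 77 met the rule, 1.09% of those that could.

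Pv11 cells were established from Polypedilum vanderplanki, the sleeping chironomid, an African midge that can dry out as a larva and resume life in water. The cells survive drying if they are first held in trehalose, a sugar that the larvae accumulate. HSF1, heat shock factor 1, is a transcription factor that binds heat shock elements in promoters and activates chaperone genes after heat and other stresses. Alternative splicing gives several HSF1 isoforms, and the series sets lines with 1 isoform each beside cells that lack HSF1 and cells that keep their own.

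Each line carries an HSF1 knockout (KO) and, per the labels, overexpresses a single HSF1 form: V4, V5-6, V1, V2 or V3 of the midge, or the Drosophila forms HSF1a (Dma) or HSF1b (Dmb). The other groups are KO cells with no added form and WT cells. Cells held for 48 h in 600 mM trehalose are called T48. Cells that after this treatment were dried for 11 days and then rehydrated for 24 h are called R24, and cells given a heat shock of 6 h, at a temperature not given in the sources used here, are called HS6h. All 9 genotypes were measured at T48 and HS6h. At R24 only V4, V5-6, V1, V2, V3 and WT were measured, and no group is untreated. Every group has 3 libraries of polyA RNA. The labels call the lines clonal and do not name the promoter that drives the HSF1 form, and they set no more than 1 line beside each form, so an effect of the form and one of the clone cannot be told apart.

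T48 libraries held 3043636 to 5091075 gene counts, R24 libraries 4951847 to 8808472 and HS6h libraries 4374617 to 7199241. Libraries of a group at R24 correlated at 0.982 to 0.992 in log2 CPM, against 0.908 to 0.985 between groups. The deposited table gives gene models by number only, none of the 17156 IDs matched a named gene of the reference table of 17863 loci, and genes are therefore given by ID, without a role. For the same reason the level of HSF1 in KO cells and in the lines was not checked. The labels do not say whether the 3 libraries of a group came from separate cultures, so a p-value here rests on the spread of 3 libraries, which may be technical. RNA was taken from whole cultures, in which fewer cells of a kind and less RNA per cell cannot be told apart.

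After rehydration the 77 genes had a median level of 7.95 CPM in V4, against 59.2 CPM in V1, 69.9 CPM in V2, 95.2 CPM in V3 and 24.0 CPM in WT. The median ratio of V4 was 0.294 to V1, 0.293 to V2, 0.271 to V3 and 0.444 to WT. These values chose the genes and are given as a description, with no test. WT was the closest of these 4 groups for 52 genes, V1 for 11, V2 for 11 and V3 for 3. The ratio to the closest group ran from 0.0177 to 0.595 with a median of 0.486, and it was at most 0.5 for 45 genes, at most 0.25 for 10 and at most 0.1 for 4. Just inside the threshold were g6140 at 0.593 and g16178 at 0.595, and just outside were g553 and g2624, whose ratios were 0.610 and 0.611. In 69 of the 77 genes all 3 V4 libraries lay below all 12 libraries of V1, V2, V3 and WT. The rule makes a high number likely here, and the share of all genes with this separation was not computed. Of all 8929 genes tested at R24, 14.9% were called lower and 12.4% higher in V4 than in WT, in the libraries that also chose the 77 genes. The opposite pattern, V4 above each of the 4 groups by the inverse of the same factor, was met by 268 of the 7053 genes that passed the minimum.

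How many genes meet the rule depends on how levels are computed. With library sizes adjusted by TMM, a scaling by the typical gene, 133 genes met it, all 77 among them. Without scaling factors the median log2 difference of all genes between V4 and WT at R24 was 0.27, against 0.02 with them. For the typical gene a CPM level in V4 thus stands slightly high relative to that in WT. With all transcripts of a gene summed in place of the 1 with the highest total, 19 genes met the rule, 18 of them among the 77. The 77 are therefore genes whose most counted transcript was low in V4. Of the 77, 54 had a further transcript at 5 CPM or more in WT, and in 38 of these every such transcript was also within the threshold. In all, 260 of 360 such further transcripts were. Transcripts of a gene are not separate counts, and in g10070 all 5 had the same level in each R24 group. Summed transcripts at R24 came to a mean of 19.4 times the gene counts in V4 and 21.0 times in WT. In V1, V2 and V3 they came to 22.6, 22.3 and 22.2 times. What this does to the number of genes that meet the rule was not tested.

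**Figure D1:**
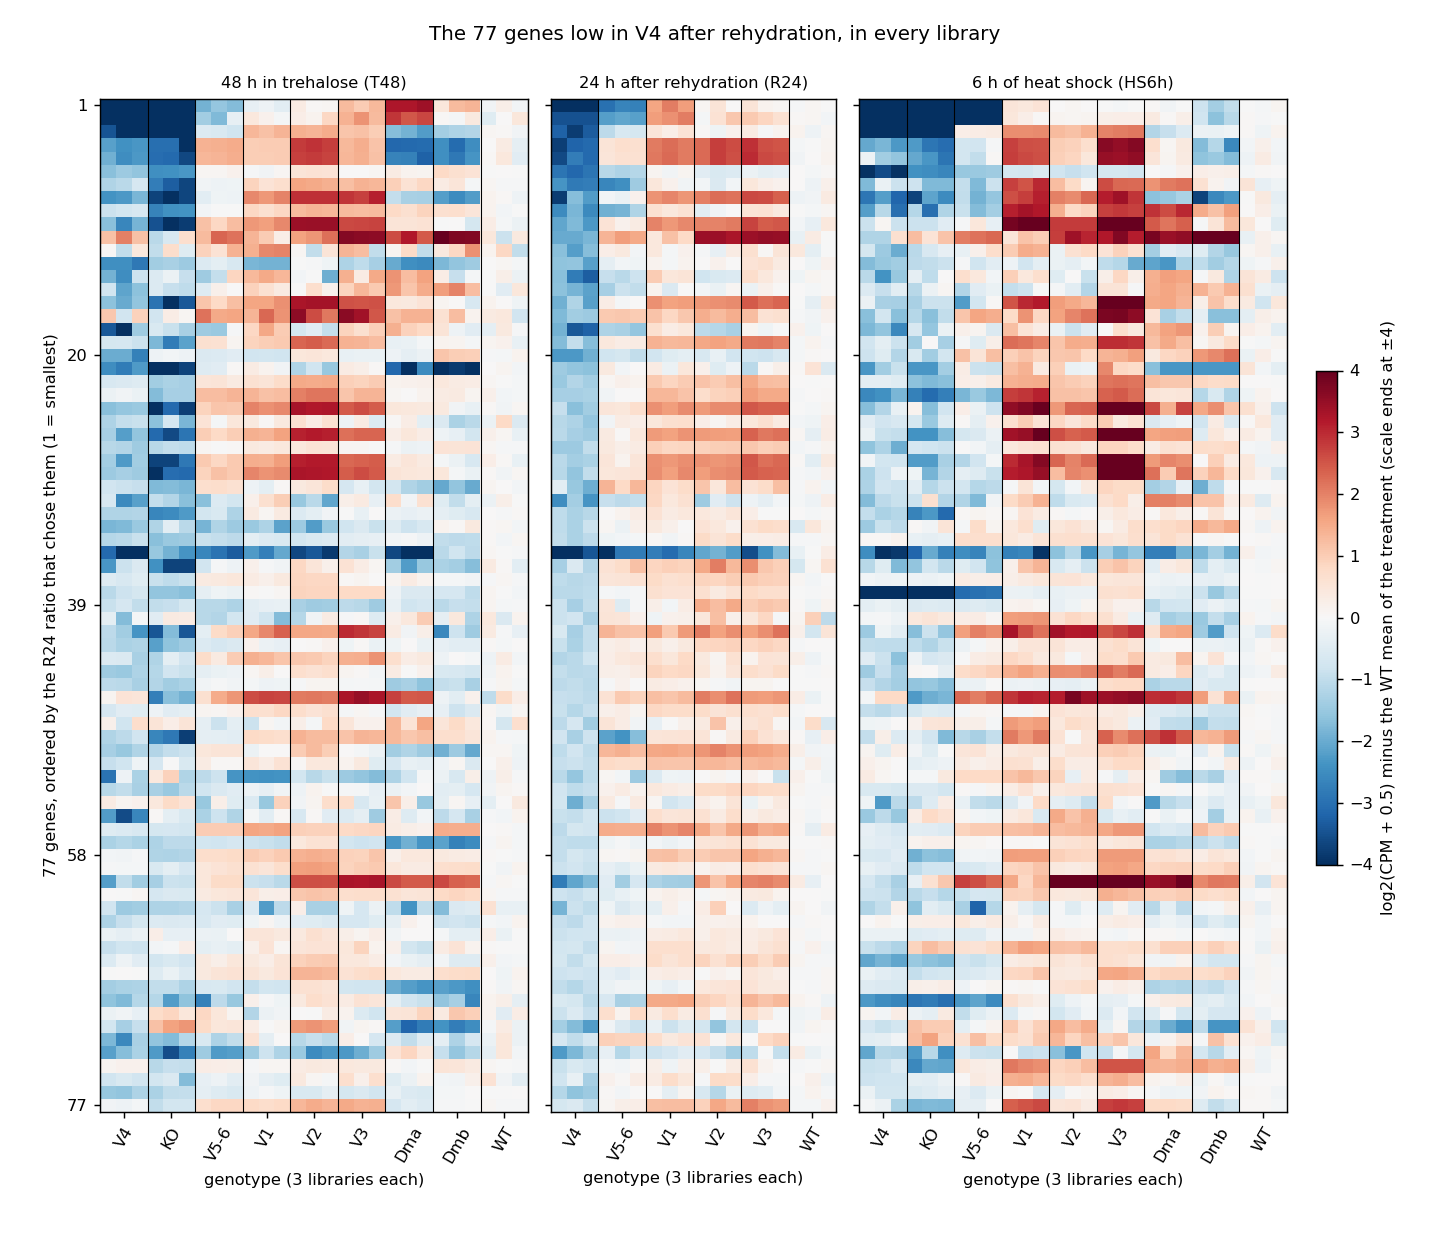
Log2(CPM + 0.5) of each of the 77 genes (rows) in every library (columns, 3 per genotype), minus the WT mean of the same treatment, with V4 left and WT right in each panel. The V4 columns are blue for almost all rows at R24, which chose them, and for most rows at T48 and HS6h, where the KO columns are blue as well.

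The gene with the smallest ratio to its closest group was g239. Its levels at R24 were 1.51, 1.21 and 1.05 CPM in the V4 libraries, 12.1, 15.5 and 14.8 CPM in V5-6, 294, 407 and 314 CPM in V1, 105, 142 and 101 CPM in V2, 142, 109 and 103 CPM in V3 and 94.5, 105 and 97.2 CPM in WT. The V4 libraries lay below all others, V5-6 came next, and V1, V2 and V3 reached or passed the WT libraries. The neighbouring ID g240 had 0 counts in all 3 V4 libraries, against 17.4, 19.6 and 22.7 CPM in V1 and 5.32, 5.39 and 4.67 CPM in WT. A floor of 3 counts over the V4 libraries is 0.164 CPM, so g240 was at least 31.2-fold lower in V4 than in WT and at least 120.1-fold lower than in V1, with counting error only. The WT level of g240, 5.12 CPM, was just above the minimum of the rule, whereas that of g239 was 98.8 CPM.

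The most abundant of the 77 in WT at R24 was g5020. It had 54.0, 46.9 and 55.0 CPM in V4, 193, 176 and 187 CPM in V5-6, 447, 376 and 453 CPM in V1, 302, 274 and 283 CPM in V2, 356, 315 and 334 CPM in V3 and 424, 395 and 430.1 CPM in WT. Here V1 overlapped WT, V2 and V3 lay below WT, and V5-6 stood between these and V4. The next, g2777, had 195, 184 and 189 CPM in V4, 557, 562 and 588 CPM in V5-6, 676, 603 and 626 CPM in V1, 736, 711 and 777 CPM in V2, 812, 766 and 754 CPM in V3 and 422, 369 and 396 CPM in WT. In g2777 all other lines lay above WT, and V4 alone lay below it. WT levels over the 77 genes ran from 5.12 to 416.4 CPM with a median of 24.0, and over all 7053 genes that passed the minimum the median was 31.5 CPM.

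**Figure D2:**
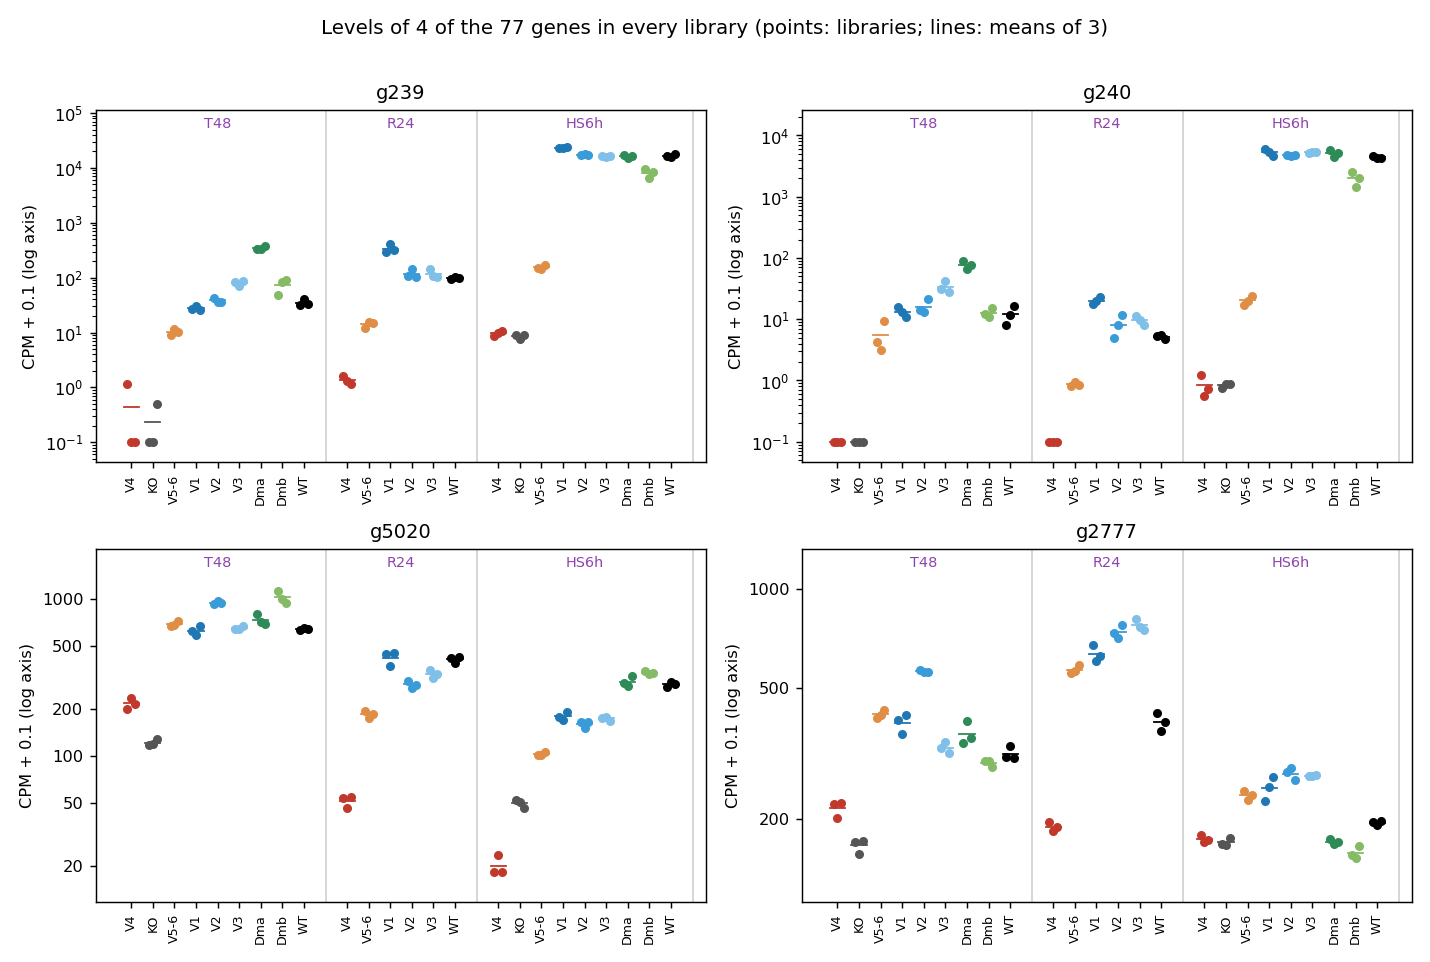
Levels of g239, g240, g5020 and g2777 as CPM + 0.1 on a log axis in every library (points, with the mean of 3 as a line), by treatment and genotype. V4 is lowest in all 4 genes at R24 and close to KO for g239 and g240 at T48 and HS6h, where V1, V2, V3, Dma, Dmb and WT are far above V4, KO and V5-6 at HS6h.

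The isoform line V5-6 took no part in the choice of the genes, but the V4 and WT libraries it is set against at R24 did. Both contrasts at R24 are therefore given as a description, with counts past the threshold and no p-values of single genes. At R24, edgeR's quasi-likelihood test, with Benjamini-Hochberg adjusted p under 0.05 over all 8929 genes, called 71 of the 77 lower in V4 than in V5-6, where 16.7% of all genes were lower. The median log2 difference was -1.51, against 0.02 over all genes, and nothing is read from these counts. All 3 V4 libraries lay below all V5-6 libraries in 70 of the 77. These V4 libraries chose the genes, and the share of all genes with this separation was not computed. Among the largest differences was that of g16174, at 1.06, 1.82 and 1.95 CPM in V4 against 29.8, 33.4 and 32.2 CPM in V5-6. Its log2 difference was -4.41 (SE 0.28). The neighbouring ID g16175, which may share reads with it, differed by -4.12 (SE 0.27). A single gene was called higher in V4, where 15.2% of all genes were. This was g17497, at 6.63, 4.44 and 6.46 CPM in V4 and 2.27, 1.86 and 3.22 CPM in V5-6 (log2 1.15, SE 0.28). With all transcripts summed, g17497 was not past the threshold and its log2 difference was 0.30.

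Against WT at R24, V5-6 was lower for 23 of the 77 genes and higher for 11, where 8.97% and 7.66% of all genes were called by edgeR. Without scaling factors the split was 20 lower and 16 higher. Over the 77 genes the median log2 difference was -0.08, against 0.00 over all genes. Lower in V5-6 was g14027, at 0.709, 2.19 and 2.34 CPM in V5-6 and 15.6, 19.1 and 23.7 CPM in WT (log2 -3.63, SE 0.39). In this gene V1, V2 and V3 were low too, at 2.34 ± 0.460, 4.24 ± 0.598 and 3.28 ± 2.14 CPM (SD, n = 3 each), and V4 had 0.836 ± 0.479 CPM. Higher in V5-6 were g2994 and g3837. The levels of g2994 were 21.8, 27.2 and 24.3 CPM in V5-6 and 6.56, 10.3 and 7.96 CPM in WT (log2 1.40, SE 0.19). Those of g3837 were 206, 201 and 201 CPM in V5-6 and 76.0, 57.4 and 92.3 CPM in WT (log2 1.28, SE 0.13).

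Among the 6 genotypes at R24, V4 had the lowest mean in 75 of the 77 genes. The rule itself sets V4 below WT, V1, V2 and V3, so only V5-6 could be lower, and nothing is read from this count. In g17497 and g17052, both picked out after their values were seen, V5-6 was not above V4. The highest mean was that of V3 in 33 genes, V1 in 19, V2 in 17, WT in 5 and V5-6 in 3. WT was lowest of the other 5 genotypes in 35 genes and V5-6 in 29. The median log2 difference from WT over the 77 genes was 0.52 for V1, 0.52 for V2 and 0.54 for V3, without a test since these groups took part in the choice.

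The 77 genes together held 0.257% ± 0.00305 of the gene counts in V4 at R24 (SD, n = 3 libraries here and in the following), against 0.598% ± 0.00595 in V5-6 and 0.584% ± 0.0151 in WT. The V1 libraries were at 0.893% ± 0.0245, the V2 libraries at 0.929% ± 0.0240 and the V3 libraries at 1.01% ± 0.0548, all above WT. At T48 the share was 0.563% ± 0.0106 in V4, 0.395% ± 0.0147 in KO and 0.882% ± 0.0209 in WT. V4 thus lay between KO and WT at T48, and the libraries of these 3 groups did not overlap. At HS6h the share was 0.248% ± 0.00443 in V4, 0.242% ± 0.00474 in KO, 0.408% ± 0.00975 in V5-6 and 2.61% ± 0.112 in WT. Most of the WT share at HS6h came from g239 and g240. Without them it was 0.247% ± 0.00451 in V4, 0.241% ± 0.00477 in KO, 0.391% ± 0.00794 in V5-6 and 0.486% ± 0.00824 in WT. V1, V2 and V3 lay above WT in this measure, at 0.740% ± 0.0143, 0.638% ± 0.00633 and 0.947% ± 0.00447.

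**Figure D3:**
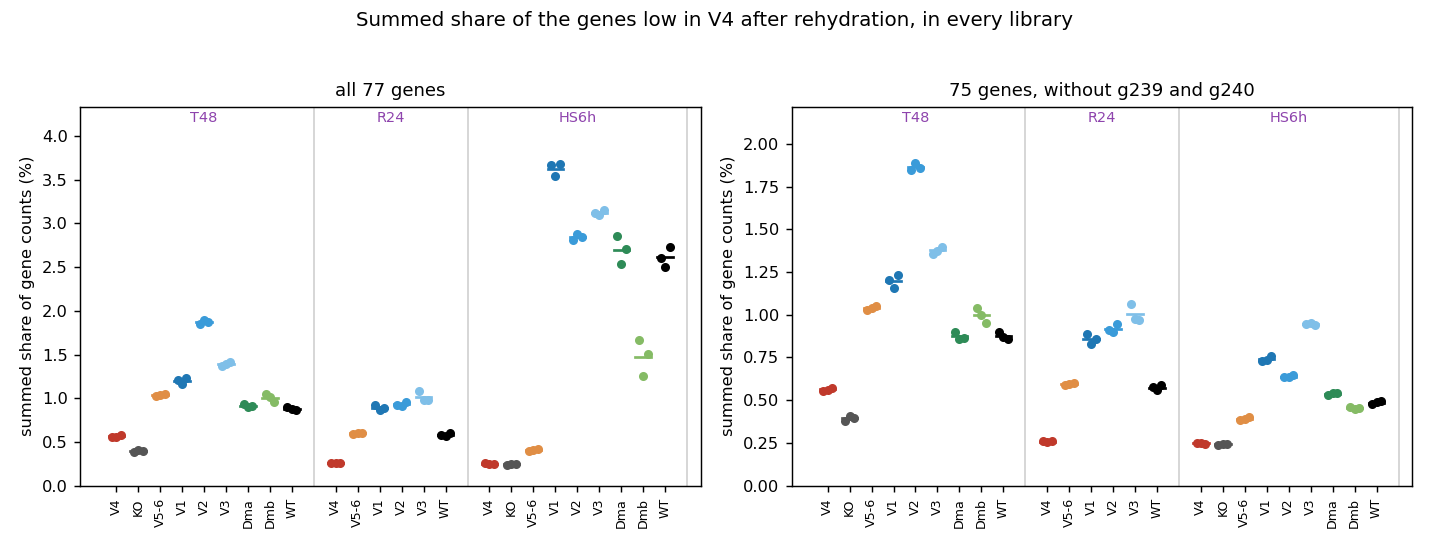
Summed share of gene counts (percent) held by the 77 genes, left, and by the 75 without g239 and g240, right, in every library (points, with the mean of 3 as a line). V4 is at 0.257% at R24, whose libraries chose the genes, below all other genotypes, while at T48 and HS6h V4 and KO have the lowest shares.

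T48 and HS6h libraries took no part in the choice, so the 77 genes could be tested there. At T48, 74 of them passed the filter on low counts, and g7409, g7415 and g14393 did not. V4 was lower than WT in 65 of the 74 and higher in 1, where edgeR called 17.6% of all 8255 genes lower and 11.3% higher. Among the genes with a WT mean of 5 CPM or more at R24 these shares were 19.4% and 11.7%. The median of the log2 differences was -1.36, against -0.04 over all genes. At T48 the gene g239 had 1.03, 0 and 0 CPM in V4 and 31.4, 40.8 and 32.4 CPM in WT (log2 -6.62, SE 0.38, adjusted p 1.21e-27 by edgeR). All 3 V4 libraries again had 0 counts of g240, against 8.08, 11.8 and 16.2 CPM in WT, at least 46.3-fold lower (adjusted p 3.29e-17 by edgeR). In both genes the groups did not overlap, and V4 was at or near 0. The abundant g5020 had 200.3, 234 and 216 CPM in V4 and 638, 655 and 645 CPM in WT (log2 -1.70, SE 0.06, adjusted p 1.48e-40 by edgeR). The 1 gene that was higher in V4 was g2994, at 4.11, 7.70 and 4.10 CPM in V4 and 2.31, 0.623 and 2.16 CPM in WT (log2 1.48, SE 0.44, adjusted p 0.00615 by edgeR). Its call was lost without V4 library 2, at a log2 difference of 1.12, and without WT library 2, at 1.11.

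At HS6h all 77 genes were tested, and 54 were lower in V4 than in WT, where 12.2% of all 8264 genes were. None was called higher, against 8.11% of all genes. Among the genes with a WT mean of 5 CPM or more at R24 the shares were 13.1% and 8.45%. By unadjusted p under 0.05, 0 of the 77 were higher, and by DESeq2 0 as well. In the median the log2 difference was -1.18, against 0.00 over all genes. The gene g239 had 8.49, 9.53 and 10.6 CPM in V4 and 16701, 15845 and 17969 CPM in WT (log2 -10.98, SE 0.12, adjusted p 7.58e-65 by edgeR). For g240 the levels were 1.11, 0.454 and 0.637 CPM in V4 and 4626, 4321 and 4369 CPM in WT (log2 -12.67, SE 0.19, adjusted p 7.48e-56 by edgeR). In both genes V4 lay far below WT, and no libraries of the groups overlapped. A small difference was that of g2777, at 179, 170.3 and 173 CPM in V4 and 196, 192 and 197 CPM in WT, with a log2 difference of -0.36 (SE 0.07, adjusted p 7.00e-05 by edgeR).

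Of the 74 genes tested in both treatments, 49 were lower in V4 than in WT at both, 16 at T48 only, 5 at HS6h only and 4 at neither. Of all 7826 genes tested in both, these classes held 6.5%, 11.5%, 5.75% and 76.2%. The 5 that were lower at HS6h only were g8843, g16350, g16710, g17489 and g17494, and the 4 called at neither were g167, g2994, g7411 and g12998 (all picked out after their values were seen). Being called in 1 treatment only is not a test of a difference between treatments. At T48 g16350 had 1199, 1238 and 1239 CPM in V4 and 1155, 1083 and 1069.5 CPM in WT, and the groups differed by a log2 of 0.03 (SE 0.06). At HS6h it had 17.9, 18.2 and 22.7 CPM in V4 and 39.4, 29.2 and 33.1 CPM in WT, a log2 difference of -0.99 (SE 0.12, adjusted p 2.48e-09 by edgeR). The gene g167 stood at 3.09, 4.37 and 4.10 CPM in V4 and 1.15, 4.98 and 3.51 CPM in WT at T48, and these libraries overlapped.

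**Figure D4:**
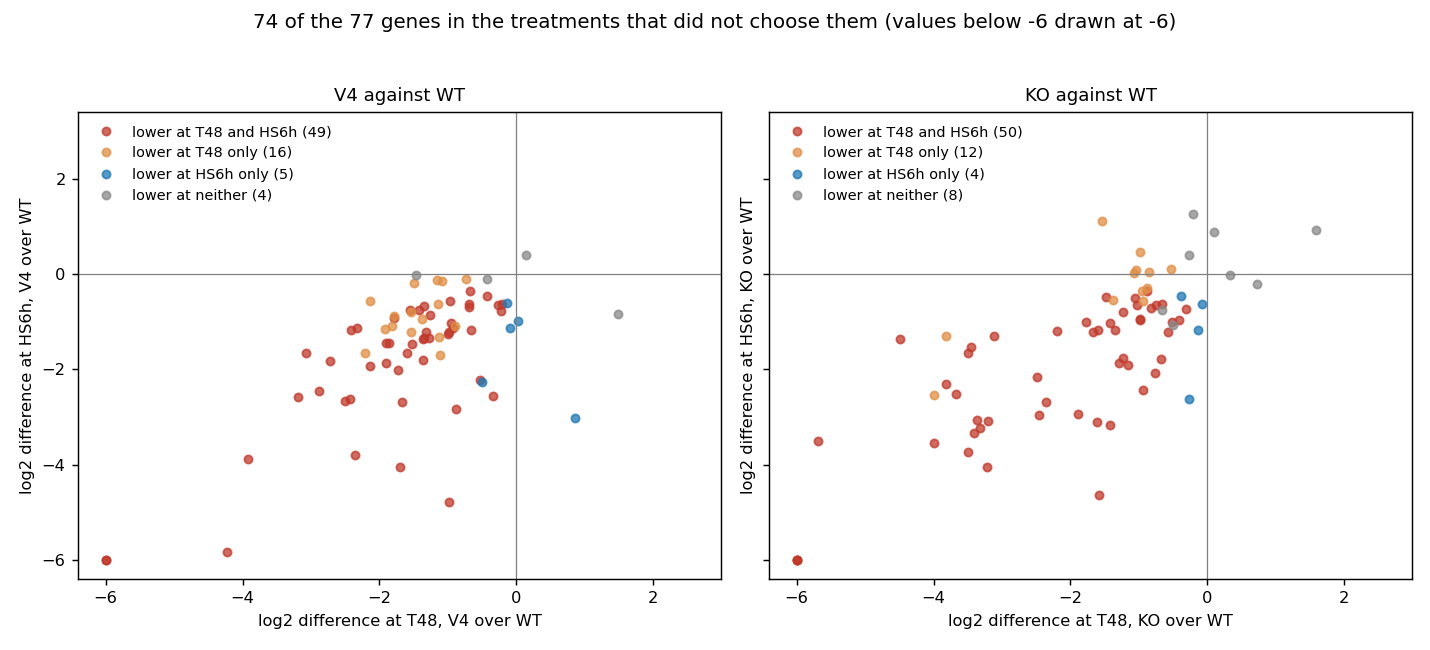
Log2 differences from WT at T48 (x axis) and HS6h (y axis) for the 74 genes tested in both treatments, for V4 (left) and KO (right), coloured by the treatments in which the gene was called lower. For V4, 49 genes were lower in both treatments, and for KO 50 were, and both panels use the same WT libraries.

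The pattern that chose the genes, V4 below each of WT, V1, V2 and V3, was also looked for in the other treatments. At T48, 53 of 74 genes were called lower in V4 against all 4 groups, where 4.09% of all genes were. At HS6h this held for 48 of 77 genes, where 5.92% of all genes were. Line by line at T48, V4 was lower than V1 in 65 of the 74 genes, than V2 in 62 and than V3 in 65, where 19.1%, 20.8% and 11.3% of all genes were. At HS6h the counts were 72 of 77 against V1, 68 against V2 and 72 against V3, where 19.3%, 22.3% and 18.6% of all genes were. The gene g3757, picked out after its values were seen, was higher in V4 than in V2 and in V3 at T48, where 18.6% and 8.89% of all genes were, and no other was. The combined pattern held for 38 genes in both treatments, for 15 at T48 but not at HS6h, for 10 at HS6h but not at T48, and for 11 of the 74 in neither, where these classes held 2.06%, 2.17%, 3.76% and 92% of all 7826 genes. None was called higher against all 4 groups in either treatment, by edgeR, by DESeq2 or by unadjusted p under 0.05, where 1.96% of all genes were at T48 and 2.98% at HS6h. The ratio of the rule itself, at most 0.6, was met by 40 of the 77 genes at T48, where 1.33% of the 7053 genes met it. At HS6h 37 of the 77 met it, against 1.62%.

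KO cells carry the same HSF1 knockout as the lines and no added form. In KO cells at T48, 62 of the 74 genes were lower than in WT and 1 was higher, where 14.9% and 13.4% of all genes were called. The median log2 difference was -1.23, against -0.01 over all genes. The largest difference outside g240 was in g6912, at 0.471, 0.544 and 0.197 CPM in KO and 110.2, 108 and 95.8 CPM in WT (log2 -7.93, SE 0.24, adjusted p 1.27e-47 by edgeR). No count of g240 was found in KO at T48, which places it at least 52.5-fold below WT. Of g239 KO had 2 counts and WT 360, a ratio of WT to KO of 225 with an exact 95% interval of 61.9 to 1866. The gene that was higher in KO was g4976, at 56.7, 78.1 and 86.1 CPM in KO and 23.7, 31.4 and 21.0 CPM in WT (log2 1.59, SE 0.16, adjusted p 6.80e-15 by edgeR). In V4 the same gene had 14.9, 9.76 and 12.9 CPM at T48, below WT (log2 -1.13, SE 0.19, adjusted p 6.38e-07 by edgeR).

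At HS6h 54 of the 77 genes were lower and 2 higher in KO than in WT, where 15% and 12.9% of all genes were called. Over the 77 genes the median log2 difference was -1.16, against -0.02 over all genes. The levels of g239 were 9.01, 7.53 and 8.73 CPM in KO, and those of g240 0.659, 0.792 and 0.779 CPM, against the WT levels given above (log2 -11.12 for g239 and -12.65 for g240, SE 0.12 and 0.19). Higher in KO were g8025, at 14.5, 18.8 and 11.5 CPM in KO and 6.73, 7.36 and 4.10 CPM in WT, and g12149, at 71.0, 90.3 and 78.1 CPM in KO and 40.1, 31.9 and 44.3 CPM in WT. Their log2 differences were 1.12 (SE 0.26, adjusted p 4.84e-04 by edgeR) and 0.88 (SE 0.10, adjusted p 2.08e-10 by edgeR). Without scaling factors 6 of the 77 were higher in KO. Of the 74 genes tested in both treatments, 50 were lower in KO than in WT at both, 12 at T48 only, 4 at HS6h only and 8 at neither, where 6.13%, 8.93%, 8.98% and 76% of all genes were. V4 and KO were each set against the same WT libraries, so V4 was also set against KO directly.

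At T48, V4 was lower than KO in 20 of the 74 genes and higher in 32, where 16.9% and 13% of all genes were called. Without scaling factors the split was 13 lower and 35 higher. The median of the log2 differences was 0.21, against -0.01 over all genes. Higher in V4 was g6912, at 9.00, 3.08 and 6.02 CPM in V4 against 0.471, 0.544 and 0.197 CPM in KO (log2 3.70, SE 0.47, adjusted p 1.65e-10 by edgeR). In g6912 V4 thus stood between KO and WT, whose libraries did not overlap with those of V4. Higher in V4 was also g17496, at 15.4, 17.0 and 22.4 CPM in V4 and 4.94, 3.26 and 2.37 CPM in KO (log2 2.21, SE 0.23, adjusted p 1.49e-13 by edgeR). Lower in V4 than in KO were g5766, at 3.34, 1.03 and 2.46 CPM in V4 and 18.1, 13.3 and 11.4 CPM in KO, and g4976, whose levels are given above. Their log2 differences were -2.80 (SE 0.34, adjusted p 2.30e-11 by edgeR) and -2.72 (SE 0.17, adjusted p 2.90e-25 by edgeR). In g5766 KO differed from WT by a log2 of -0.27 (SE 0.25), which was not called.

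At HS6h, V4 was lower than KO in 20 of the 77 genes and higher in 15, where 18.2% and 18% of all genes were called, and the median log2 difference was 0.00, against 0.02 over all genes. Without V4 library 1 at HS6h, 8 genes were higher. Lower in V4 was g12149, at 20.5, 18.4 and 16.1 CPM in V4 against 71.0, 90.3 and 78.1 CPM in KO (log2 -2.15, SE 0.12, adjusted p 2.30e-23 by edgeR). Higher in V4 was g1009, at 17.0, 13.4 and 14.7 CPM in V4 and 4.84, 6.34 and 3.43 CPM in KO (log2 1.62, SE 0.21, adjusted p 3.36e-09 by edgeR). The difference between V4 and KO in g239 at HS6h was a log2 of 0.14 (SE 0.20) and was not called. Among all 9 genotypes, the lowest mean was that of KO in 41 of the 77 genes and of V4 in 19 at T48, and of KO in 31 and V4 in 26 at HS6h.

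At T48 and HS6h, in libraries that did not choose the genes, V4 was called lower than V5-6 in a larger share of these genes than of all genes. At T48, 57 of 74 genes were lower in V4 than in V5-6 and none was called higher, where 12.2% and 8.14% of all genes were. A single gene was higher by unadjusted p under 0.05. At HS6h 43 of 77 were lower in V4 and 2 higher, g12998 and g14328 (picked out after their values were seen), where 12.1% and 9.31% of all genes were called. In the median the log2 difference was -1.09 at T48 and -0.91 at HS6h.

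Against WT, V5-6 was lower for 24 and higher for 28 of 74 genes at T48, where 15.5% and 13.2% of all genes were called. Without the 14 genes from g17480 to g17501, described below, V5-6 was lower for 23 and higher for 17 of 60. Lower at T48 was again g14027, at 7.37, 5.70 and 4.35 CPM in V5-6 and 50.5, 47.3 and 46.1 CPM in WT (log2 -3.10, SE 0.25, adjusted p 6.41e-19 by edgeR). Higher at T48 was g16174, at 114, 118 and 122 CPM in V5-6 and 44.1, 54.8 and 33.4 CPM in WT (log2 1.38, SE 0.12, adjusted p 8.94e-18 by edgeR), a gene that in V4 had 9.26, 7.70 and 8.21 CPM. At HS6h V5-6 was lower than WT for 28 of 77 genes and higher for 11, where 9.45% and 9.21% of all genes were called, and without scaling factors the split was 22 lower and 16 higher. In V5-6 g239 had 147, 141 and 171 CPM at HS6h, above V4 and far below WT (log2 against WT -6.93, SE 0.09, adjusted p 1.68e-59 by edgeR). Higher in V5-6 at HS6h was g7662, at 14.8, 13.3 and 10.7 CPM in V5-6 and 2.19, 0.833 and 2.83 CPM in WT (log2 2.57, SE 0.27, adjusted p 5.08e-12 by edgeR).

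In the lines with V1, V2 or V3 more of these genes were called higher than WT than lower. The rule kept only genes in which these lines stood above V4 at R24. This choice may favour such a split, and how far was not tested. At T48 33, 45 and 35 of the 74 genes were higher in V1, V2 and V3, where 11.6%, 18.6% and 10.8% of all genes were, and 15, 11 and 14 were lower, where 12.8%, 20.5% and 13.6% were. At HS6h 53, 46 and 50 of the 77 were higher in V1, V2 and V3, where 14%, 16.4% and 15.9% of all genes were, and 3, 6 and 5 were lower, where 11.3%, 16% and 15.1% were. The median log2 differences from WT at HS6h were 1.00 for V1, 0.50 for V2 and 0.77 for V3, and at T48 they were 0.23, 0.56 and 0.37. Without the 14 genes from g17480 to g17501, described below, 19, 31 and 21 of 60 were higher at T48 and 15, 11 and 14 lower. Their medians at T48 were 0.02, 0.47 and 0.02. At HS6h 39, 34 and 36 of the other 63 were higher and 3, 6 and 5 lower. The Drosophila forms split the genes more evenly at T48. With Dma 29 of 74 genes were higher than WT and 20 lower at T48, where 14.6% and 13.5% of all genes were, and 35 higher and 19 lower of 77 at HS6h, where 12.9% and 16.5% were. With Dmb 26 were higher and 23 lower at T48, where 16.5% and 15.2% of all genes were, and 20 higher and 30 lower at HS6h, where 17.9% and 20.7% were. Without the 14 genes from g17480 to g17501, 16 of 60 were higher and 20 lower at T48 with Dma, and 17 and 23 with Dmb. At HS6h 21 of 63 were higher and 19 lower with Dma, and 12 and 30 with Dmb. The groups V5-6, V1, V2, V3, Dma and Dmb were all set against the same WT libraries.

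**Figure D5:**
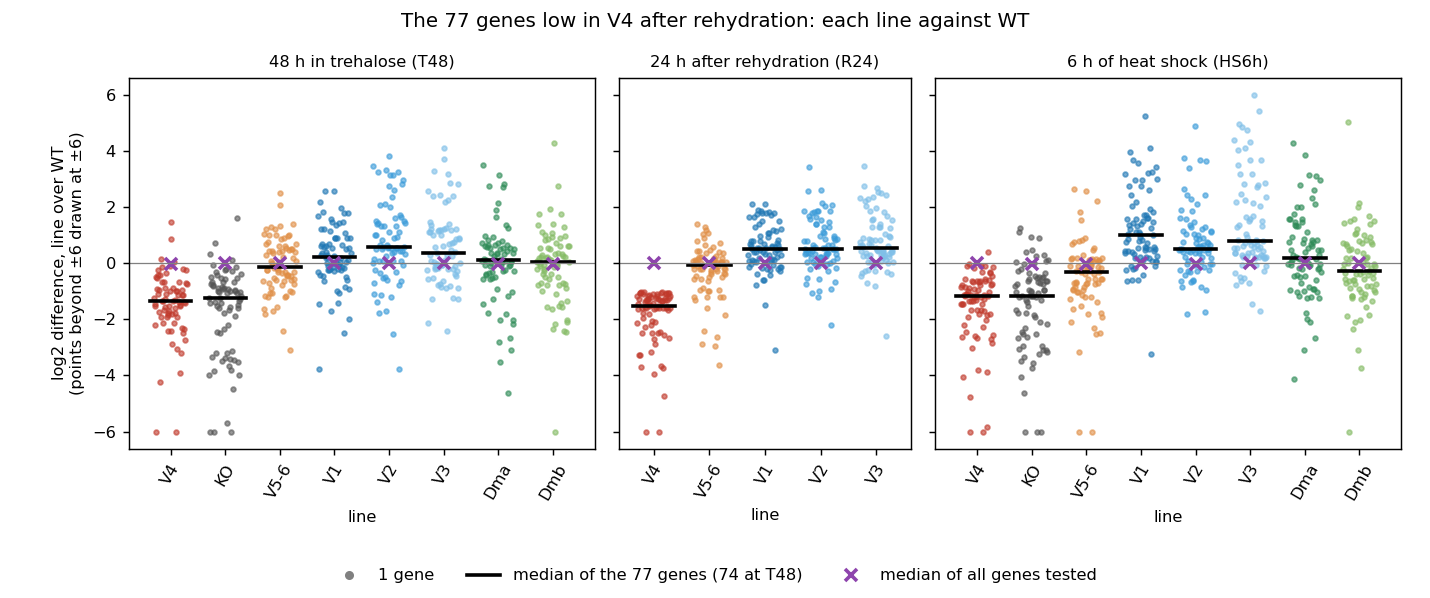
Log2 difference of each of the 77 genes (points, 74 at T48) from WT in each line, by treatment, with the median of these genes (bar) and of all genes tested (cross). The bars lie at -1.36, -1.53 and -1.18 for V4 at T48, R24 and HS6h and at -1.23 and -1.16 for KO at T48 and HS6h, while those of V1, V2 and V3 lie above 0.

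At HS6h against T48 the 77 genes were called lower more often than all genes, and higher about as often or less. This did not hold for higher calls without the 14 genes from g17480 to g17501, described below. Of the other 63, 25 were lower and 22 higher in WT, and 24 lower and 21 higher in V4. In WT, 39 were lower and 22 higher at HS6h than at T48, where 28.7% and 28.6% of all 9231 genes were called. Without scaling factors the split was 47 lower and 14 higher. In V4, 38 were lower and 21 higher at HS6h than at T48, where 31% and 31.3% of all genes were called. The gene g239 stood at 16838 CPM in WT at HS6h against 34.9 CPM at T48 (log2 9.39, SE 0.19, adjusted p 2.08e-58 by edgeR). In V4 its means were 9.55 CPM at HS6h and 0.343 CPM at T48 (log2 5.02, SE 0.62, adjusted p 3.35e-11 by edgeR). The lowest after heat relative to T48 in WT was g17486, at 0.731, 0.417 and 0.142 CPM at HS6h and 42.4, 32.4 and 29.1 CPM at T48 (log2 -5.81, SE 0.32, adjusted p 3.53e-28 by edgeR). The highest WT mean of the 3 treatments was at T48 for 38 genes, at R24 for 27 and at HS6h for 12.

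V4 also differed from WT to another degree in heat than in trehalose for some of the genes. The difference between V4 and WT was lower at HS6h than at T48 in 14 of the 77 genes and higher in 11, where 6.94% and 7.1% of all genes were called. In g14582 V4 had 45.2, 44.9 and 39.7 CPM and WT 1024, 1039 and 1059.8 CPM at HS6h, and V4 had 112, 133 and 145 CPM and WT 256, 233 and 221 CPM at T48. V4 thus lay further below WT after heat shock, by a log2 of -3.84 (SE 0.14, adjusted p 3.00e-39 by edgeR).

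Rehydration against trehalose could be tested in V5-6, whose R24 libraries took no part in the choice. In this line 37 of the 77 genes were lower and 25 higher at R24 than at T48, where 28.1% and 30.2% of all genes were called. Without the 14 genes from g17480 to g17501, 23 of 63 were lower and 25 higher. The gene g8843 had 134, 139 and 132 CPM at R24 and 3.27, 1.90 and 2.05 CPM at T48 in V5-6 (log2 5.56, SE 0.28, adjusted p 1.84e-30 by edgeR). In V4 g8843 had 19.0, 24.4 and 23.4 CPM at R24 and 1.29, 0 and 1.09 CPM at T48, and in WT 63.6, 59.1 and 73.5 CPM at R24 and 0.577, 0.623 and 0 CPM at T48. Near 0 in trehalose, the gene was present after rehydration in all 3 genotypes, at a lower level in V4 than in V5-6 and WT. The lowest at R24 relative to T48 in V5-6 was g17496, at 0.567, 0.675 and 1.90 CPM at R24 and 32.7, 31.3 and 31.7 CPM at T48 (log2 -5.14, SE 0.28, adjusted p 1.35e-28 by edgeR). The median log2 difference of R24 from T48 over the 77 genes was -0.54 for V4, -0.22 for V5-6, 0.06 for V1, -0.03 for V2, 0.00 for V3 and -0.36 for WT, of which only that of V5-6 is free of the libraries that chose the genes.

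Many of the 77 genes had neighbouring IDs. There were 17 pairs with consecutive numbers, and 39 genes lay in 11 runs whose neighbouring numbers differed by at most 5. The longest run held 14 genes, from g17480 to g17501, among 22 IDs in that interval. Of the other 8 IDs, 5 were under the minimum of 5 CPM in WT and 3 were above it but outside the threshold. The files give no coordinates, so whether consecutive IDs are neighbours on a chromosome is not given in the sources used here.

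The 14 genes from g17480 to g17501 were a set picked out after their values were seen. Some of them may share reads, among them g17482 with g17483 and g17480 with g17487. The 14 are therefore uncertain as separate genes, and counts out of 14 may hold the same reads more than once. At T48 all 14 were lower in KO than in WT, with a median log2 difference of -3.16, and all 14 were higher in V4 than in KO, with a median of 1.60, where 14.9% and 13% of all genes were called. V4 was lower than WT in 12 of the 14, with a median of -1.12, where 17.6% of all genes were. All 14 were higher than WT in the V1, V2 and V3 lines, with medians of 0.78, 2.00 and 1.23, where 11.6%, 18.6% and 10.8% of all genes were. Their median level at T48 was 19.6 CPM in V4, 5.36 CPM in KO, 97.1 CPM in V5-6, 159.8 CPM in V1, 402 CPM in V2, 256 CPM in V3, 69.0 CPM in Dma, 46.5 CPM in Dmb and 49.5 CPM in WT. From low to high these medians ran KO, V4, Dmb, WT, Dma, V5-6, V1, V3 and V2. An example is g17482, at 13.6, 14.6 and 15.6 CPM in V4, 1.88, 4.62 and 2.76 CPM in KO, 434, 414 and 418 CPM in V2 and 45.6, 40.2 and 46.9 CPM in WT, with no overlap between these groups. Of the other genes, 60 were tested at T48, and there V4 was higher than KO in 18 and lower in 20.

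After heat shock all 14 were lower than at T48 in V4, KO, V5-6 and WT, where 31%, 29.2%, 30.6% and 28.7% of all genes were. Their median level at HS6h was 1.10 CPM in V4, 0.858 CPM in KO and 2.16 CPM in WT. At this level 7 of the 14 were lower in V4 than in WT, where 12.2% of all genes were. In V1 and V3 the 14 were all higher than in WT at HS6h, with median log2 differences of 3.18 and 3.01, and in V2 12 of them were, with a median of 1.33, where 14%, 15.9% and 16.4% of all genes were higher in V1, V3 and V2. At R24 their median level was 7.85 CPM in V4, 28.0 CPM in V5-6, 69.4 CPM in V1, 70.4 CPM in V2, 104.6 CPM in V3 and 21.2 CPM in WT, values that chose them except for V5-6. Without these 14 genes V4 was lower than WT in 53 of 60 genes tested at T48 and 47 of 63 at HS6h. Of all genes, 17.6% and 12.2% were. The lower level of V4 outside R24 was thus also counted among the other genes.

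Some of the genes may share reads. In 5 pairs of the 77 the split of counts between both genes varied over the libraries no more than counting error, at 0.430 to 1.01 times its variance by a chi-square test. The pairs were g17482 with g17483, g7409 with g7415, g17480 with g17487, g16174 with g16175 and g2105 with g2106 (named since they are 5). Reads of near-identical copies could be divided between them in this way, and reads of overlapping models could be counted in both. In WT at R24 the transcript used for g2105 had 15.4 CPM, its transcript t1 9.58 CPM and g2106 5.85 CPM. In V4 they had 1.99, 1.31 and 0.687 CPM. In both groups the level of the first matched those of the others added together. Sharing of reads was not tested, so the members of a pair are uncertain as separate genes. Counted once each, 72 genes remained. No such pair joined 1 of the 77 to another of the 8271 genes compared. In this count V4 was lower than WT in 61 of the genes tested at T48 and in 52 of 72 at HS6h. Of all genes, 17.6% and 12.2% were. The 72 may still include genes that share reads, which was not tested. At R24 the transcript used for g12727 had 181 CPM in V4 and 362 CPM in WT, near g12728 at 176 and 352 CPM. The other transcript of g12727 had 129 and 89.1 CPM. For g10069 the transcript used had 64.2 and 120 CPM, near g10070 at 51.8 and 106 CPM. The other transcripts of g10069 had ratios to the closest group of 0.987 to 1.05.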

How the data were processed

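PolyA RNA of 72 libraries in 24 groups of 3 was measured. The deposited table holds raw read counts per transcript model, made by the authors with FastQC 0.11.9, Trimmomatic 0.39, HISAT2 2.2.1 and HTSeq 2.0.9, per the submitters' processing notes. The build, annotation and strand setting are not given in the sources used here. The table has 65235 transcripts and 5 special rows, which were left out, and 38.3% to 46.5% of a library's counts had no feature. The row with the highest total stood for each gene. Groups came from the labels, and no column was left unmapped.

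Counts were fitted with edgeR 4.0.16 (limma 3.58.1, R 4.3.3), with TMM scaling, its default filter on low counts and the quasi-likelihood test, once per treatment over 27, 18 and 27 libraries for T48, R24 and HS6h, and once over all 72 for comparisons between treatments. P-values were Benjamini-Hochberg adjusted over all genes tested and called at 0.05. The fits were tested on simulated data. Alternatives were DESeq2 1.42.0, other scalings and filters, summed transcripts, fewer groups in a fit and each library left out.

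The genes and gene lists were chosen with earlier results of these data known. The text names, for each comparison, up to 2 lower and 2 higher genes with the largest change among those that were called, did not overlap between groups and averaged 5 CPM or more in a group. At R24 it names those with the smallest ratio and the highest WT level. Intervals and floors of 3 counts cover counting error only. Replicate numbers are names in accession order.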

Additional observations from a re-analysis of the deposited data

Results flagged for a closer look

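The difference between V4 and WT itself differed between heat shock and trehalose, by a test of that difference (edgeR's quasi-likelihood test of the interaction, adjusted over all genes). Of the 77 genes, 14 had a lower and 11 a higher difference at HS6h than at T48, where 6.94% and 7.1% of all genes did. Among the 14, the lowest was that of g14582, by a log2 of -3.84, and the next that of g5020, by -2.40. For g239 the fitted value was -4.37 (SE 1.65), which was not called (adjusted p 0.0636), with 4 counts in V4 at T48. In the other direction stood g8025, by 1.53, and g5766, by 1.38. Of these, g5766 missed the threshold at 1.20, 1.24, 1.02 and 1.29 when 1 of 4 libraries was left out, and g8025 at 1.43, 1.30, 1.20 and 1.29.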

How the results depend on the processing

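The number of genes that met the rule was 77 and became 19 with summed transcripts (18 of them among the 77), 45 with a threshold of 0.5, 132 with 0.7 and 133 with TMM-adjusted library sizes. With summed transcripts on TMM-adjusted sizes, tried after seeing the data, it was 67, of which 30 were among the 77. Leaving out 1 library gave 75 to 85. Without scaling factors 6 genes were higher in KO than in WT at HS6h, 13 were lower in V4 than in KO at T48, 2 were higher in V4 than in WT at T48, and 14 were higher in WT at HS6h than at T48. With summed transcripts 0 genes were higher in V4 than in V5-6 at R24. Leaving out 1 library at a time gave 8 to 14 genes higher in V4 than in KO at HS6h, and 0 to 1 higher in V4 than in WT at T48. The cause of these changes was not tested, apart from the smaller number of libraries or the other threshold. Without scaling factors the median log2 difference over all genes between V4 and WT at T48 was 0.08, against -0.04 with them, and the change of the V4 difference between heat and trehalose split into 14 lower and 15 higher, against 14 and 11. No named gene changed its sign in the alternatives run. Of the remaining counts, 202 under other settings and 252 with a library left out stayed within 1.5 times the reported count. No paired analysis was possible because the labels give no replicate number shared between groups. The lower depth at T48 limits genes near 0 there.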
